A study of Mus musculus with 6 samples.

Results

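The genome of the mouse encodes a large family of collagens, and every gene of that family in the deposited expression table of dental epithelial organoids (DEOs) is described here. A gene was a member if its symbol was Col, a number, the letter a and a second number. Of 47360 gene symbols in the table, 44 met this rule. They were grouped by collagen type into 11 fibrillar genes (types I, II, III, V, XI, XXIV and XXVII), 10 basement membrane genes (types IV, VII, XV, XVII and XVIII) and 23 others. The rule used names and no expression value, but the members were chosen with earlier results of these data known.

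DEOs were grown from primary cells of the apical buds of incisors of 9-week-old female wild-type C57BL/6J mice, embedded in Matrigel, a basement membrane extract, and kept for 14 days before RNA-seq. Each medium contained Wnt3a-conditioned medium (50%), R-spondin1-conditioned medium (5%), EGF at 100 µg per ml, Noggin at 200 µg per ml, Y27632 (a kinase inhibitor) at 10 µM and N-acetylcysteine at 1 mM. The medium with nothing further was +N. DBZ, an inhibitor of γ-secretase that blocks Notch activation, was the addition in +ND, FGF10 (100 µg per ml) that in +NF, and +NFD had both. The labels give DBZ at 10 µM, while the methods of the study give 10 mM, and the label's unit is used here. The media with Jagged1, +NJ and +NFJ, were not analysed here. There was 1 library per medium, so no spread between cultures could be measured, no p-value is given, and every difference is one between libraries. RNA came from whole organoids, the labels name no sorting step, and how many mice supplied the cells is not given in the sources used here.

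Collagens are secreted or membrane-bound proteins whose chains wind around each other into a right-handed helix in which glycine recurs at a fixed interval. Fibrillar collagens form the tension-bearing fibres of dentin, bone and connective tissue and are made mainly by mesenchymal cells. Basement membrane collagens form or anchor the sheet on which an epithelium sits, and keratinocytes themselves make several of them. In a tooth, the epithelium of the apical bud faces the mesenchyme across such a sheet.

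The organoids carried the markers of an epithelium. All 7 epithelial markers examined (Epcam, Cdh1, Krt5, Krt14, Trp63, Cdh3 and Itgb4) were above an FPKM of 1 in each library, and their summed FPKM was 19846 (+N), 11081 (+ND), 15712 (+NF) and 13195 (+NFD). Krt14 alone made up 12652, 5530, 8295 and 6090 of this in that order. Without Krt14 the other 6 summed to 7194, 5551, 7417 and 7106. That was 0.772 (+ND), 1.03 (+NF) and 0.988 (+NFD) times the +N level. FPKM, the fragments of a transcript scaled to its length and to the library size, is a level per length and so allows genes to be compared within a library. Between 12529 and 12959 genes reached an FPKM of 1 in a library. The depth was estimated from the smallest steps in FPKM multiplied by length, and relative to +N it was about 0.774 in +ND, 0.993 in +NF and 0.981 in +NFD. Fragments per gene given below rest on these steps and on the longest annotated transcript, are rough upper values, and cover counting error only.

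Collagen RNA was detected at an FPKM of at least 1 in at least 1 library for 26 of the 44 genes, 9 fibrillar, 6 basement membrane and 11 others. Of these, 17 reached it in all 4 libraries, 2 in 3 libraries and 1 in 2 libraries. A further 6 genes reached it in a single library, Col11a1, Col22a1, Col26a1 and Col6a3 in +NFD and Col11a2 and Col20a1 in +N. The 18 genes under an FPKM of 1 everywhere were Col2a1, Col24a1, Col4a3, Col4a4, Col4a6, Col15a1, Col6a4, Col6a5, Col6a6, Col8a2, Col9a1, Col9a2, Col10a1, Col13a1, Col14a1, Col19a1, Col25a1 and Col28a1. The highest value among them was 0.878, for Col24a1 in +NFD. Col10a1, the collagen of hypertrophic cartilage, and Col19a1 were listed at 0 in all 4 libraries. For Col10a1, 3 fragments would amount to an FPKM of 0.0346 in +N and 0.0448 in +ND, so only a level above that can be said to be missing.

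Most collagen RNA was of the basement membrane class, and most of that was Col17a1. Per length, the basement membrane genes held 67.9% (+N), 78.1% (+ND), 74.2% (+NF) and 58.8% (+NFD) of the summed collagen FPKM. The summed fibrillar FPKM was 180.03 (+N), 132.8 (+ND), 118.5 (+NF) and 369 (+NFD). Relative to +N, this was 0.738 times in +ND, 0.658 times in +NF and 2.05 times in +NFD, so the library with both agents stood above the +N library and each library with a single agent below it. The basement membrane sum was 510.2 (+N), 656 (+ND), 619 (+NF) and 657 (+NFD), within 1.29 times the +N level. Without Col17a1 it was less even, at 123 (+N), 174 (+ND), 231 (+NF) and 194 (+NFD). This was 1.42 (+ND), 1.88 (+NF) and 1.58 (+NFD) times the +N level. The other collagens summed to 61.3 (+N), 51.0 (+ND), 97.3 (+NF) and 90.4 (+NFD).

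**Figure D1:**
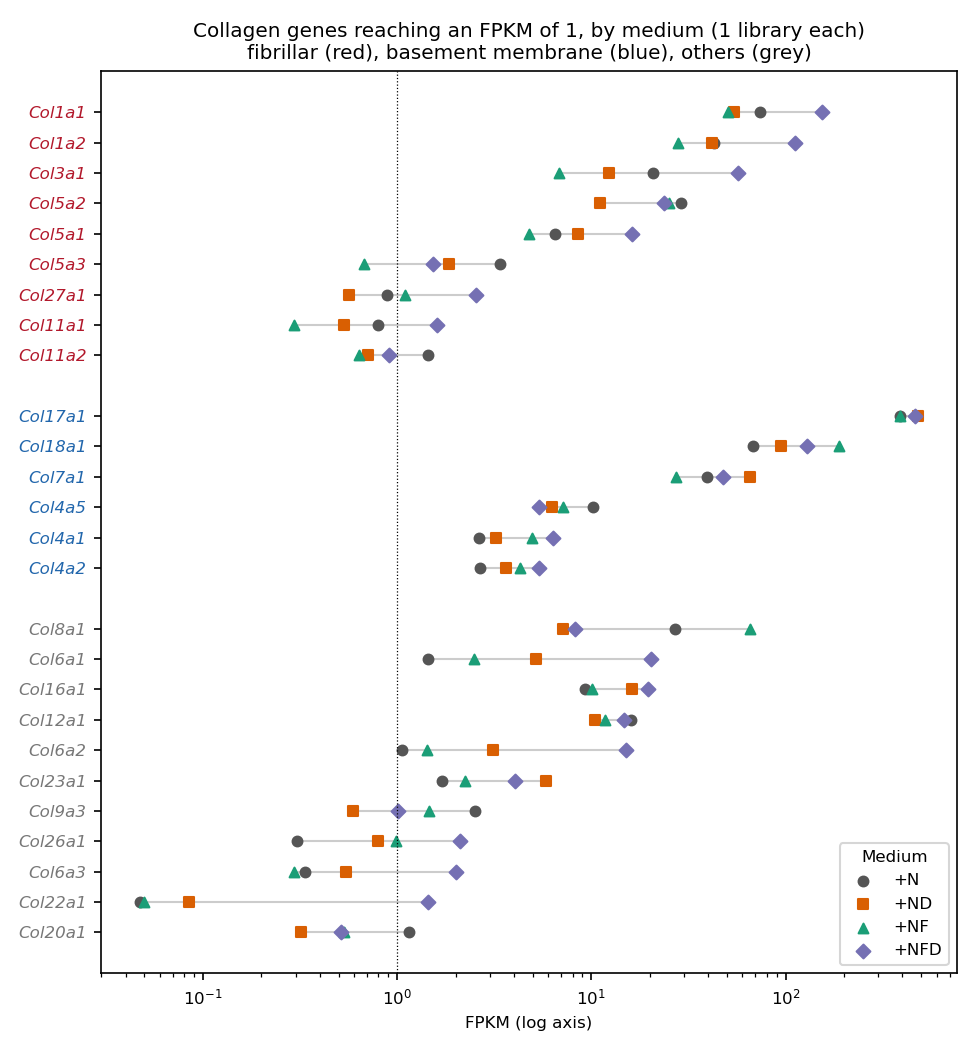
FPKM (log axis) of each collagen gene that reached 1 in at least 1 library, with 1 point per library (+N, +ND, +NF, +NFD) and genes grouped by class. The +NFD point was the highest for 14 of the 26 genes and the lowest for 1, while Col17a1 lay highest of all in every library. Of the 14, Col11a1, Col22a1, Col26a1 and Col6a3 reached 1 only in +NFD and had to be highest there.

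Among the 9 fibrillar genes that reached an FPKM of 1, +NFD held the highest value for 6 and +N for 3, and +NF held the lowest for 7. Among the 6 basement membrane genes, the highest value fell in +N once, in +ND for 2 genes, in +NF once and in +NFD for 2 genes, while the lowest fell in +N for 4. The other collagens had their highest value in +NFD for 6 of 11 and their lowest in +N for 6. Col11a1, Col22a1, Col26a1 and Col6a3 reached an FPKM of 1 only in +NFD and had to be highest there. Col11a2 and Col20a1 reached it only in +N and had to be highest in that library. No such count was made over all genes, so these counts are a description.

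Type I collagen is the main protein of dentin and bone and has a chain from each of the genes Col1a1 and Col1a2. Col1a1 (chromosome 11, 94936224 to 94953042, plus strand, GRCm38) had an FPKM of 74.3 (+N), 54.5 (+ND), 50.3 (+NF) and 153 (+NFD). Col1a2, on chromosome 6, had 42.6 (+N), 42.1 (+ND), 27.9 (+NF) and 111 (+NFD). Both were highest in +NFD, and neither agent alone was accompanied by a higher value. On the log2(FPKM + 1) scale, +NFD exceeded +N by 1.04 for Col1a1 and 1.37 for Col1a2, and it exceeded +NF by 1.59 and 1.96.

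Col3a1, on chromosome 1, encodes type III collagen of pliable connective tissue, which forms fibres together with type I. Its FPKM was 20.8 (+N), 12.3 (+ND), 6.81 (+NF) and 56.7 (+NFD). The value was lower with either agent alone and highest with both. The log2 ratio was -1.48 for +NF relative to +N and 2.12 for +NFD relative to +ND, so that the libraries with FGF10 lay on opposite sides of their controls depending on DBZ. The 2 ratios share no library. The difference between them was 3.60 on the log2 scale, the largest among the 26 genes, followed by 2.03 for Col1a1 and 1.98 for Col1a2. Without replicates it was not tested. For the media with Jagged1, not analysed here, the study reports that Col3a1 was higher with FGF10 (+NFJ relative to +NJ).

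Type V collagen is a minor component of type I fibres that limits their diameter. Col5a1 had an FPKM of 6.54 (+N), 8.57 (+ND), 4.75 (+NF) and 16.2 (+NFD). It was highest in +NFD like the type I genes, but unlike them it was also above +N in +ND. Col5a2, whose chain joins that of Col5a1 in the common form of type V, did not follow it. Col5a2 had 28.9 (+N), 11.03 (+ND), 25.2 (+NF) and 23.6 (+NFD), so +ND was low and the other 3 libraries were close to each other. Col5a3 had 3.39 (+N), 1.85 (+ND), 0.674 (+NF) and 1.53 (+NFD), with its highest value in +N.

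The other fibrillar genes were weakly expressed. Col27a1, expressed mainly in cartilage and some epithelia, had an FPKM of 0.885 (+N), 0.564 (+ND), 1.10 (+NF) and 2.54 (+NFD). Col11a1, a chain of the cartilage fibre, had 0.799 (+N), 0.531 (+ND), 0.295 (+NF) and 1.60 (+NFD). Col11a2, another chain of type XI, had 1.44 (+N), 0.711 (+ND), 0.633 (+NF) and 0.909 (+NFD). The 2 type XI genes were thus highest in different libraries. Col2a1, the main cartilage collagen, was at most 0.745 in FPKM, in +NF.

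Fibroblast marker genes and the fibrillar genes were both highest in +NFD and lowest in +NF by their sums, but lay on opposite sides of +N in +ND. The summed FPKM of 10 markers (Pdgfra, Pdgfrb, Dcn, Lum, Thy1, Twist1, Prrx1, Fap, Postn and Vim) was 137 (+N), 152 (+ND), 89.7 (+NF) and 354 (+NFD). None of the markers was at 0 in any library, and 6 of them reached an FPKM of 1 (+N), 8 (+ND), 7 (+NF) and 9 (+NFD). In +NFD relative to +N, 8 of the 9 that could be compared were at least 2-fold higher. Pdgfra, Thy1 and Twist1 reached an FPKM of 1 only in +NFD of this pair and so had to be higher. The share of all genes past this limit is given with the counts of that comparison. Most of the marker sum was Postn, a matrix protein of bone and ligament, with 102.6 (+N), 99.3 (+ND), 65.1 (+NF) and 212 (+NFD). Without Postn the other 9 markers summed to 34.7 (+N), 52.4 (+ND), 24.6 (+NF) and 142 (+NFD), which is 1.51, 0.711 and 4.11 times the +N level in the last 3. The fibrillar sum divided by the marker sum was 1.31 (+N), 0.876 (+ND), 1.32 (+NF) and 1.04 (+NFD), and without Postn 5.19, 2.53, 4.81 and 2.60. Markers of osteoblasts and odontoblasts (Sp7, Runx2, Bglap, Ibsp, Dspp and Dmp1) summed to 102 (+N), 98.6 (+ND), 99.8 (+NF) and 163 (+NFD). Bglap and Dspp were at 0 in +N, +ND and +NF and at only 0.255 and 0.0162 in +NFD. The part of these cells in the collagen values was not tested, and in whole organoids more cells of a type and more RNA per cell cannot be told apart. Endothelial markers (Pecam1, Cdh5, Kdr, Tek and Emcn) summed to at most 0.326. Markers of pericytes and smooth muscle (Rgs5, Acta2, Myh11 and Cspg4) summed to 17.98 (+N), 14.9 (+ND), 6.72 (+NF) and 13.9 (+NFD). Macrophage and leukocyte markers (Ptprc, Cd68, Csf1r, Adgre1 and Lyz2) summed to 565, 459, 399.8 and 335 in that order of media, of which Lyz2 alone made up 528, 408, 373 and 288. The other 4 of these markers summed to 36.5, 50.9, 27.002 and 46.8, higher in both libraries with DBZ. Most of that sum was Cd68 (23.5, 36.2, 16.2 and 32.9), while Csf1r was lower in +ND (5.28) than in +N (7.19). Of the cartilage markers (Acan, Sox9, Matn1 and Comp), Sox9, which is also expressed in epithelia, had 21.4, 1.45, 21.6 and 2.81, and the other 3 together came to at most 0.0811.

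**Figure D2:**
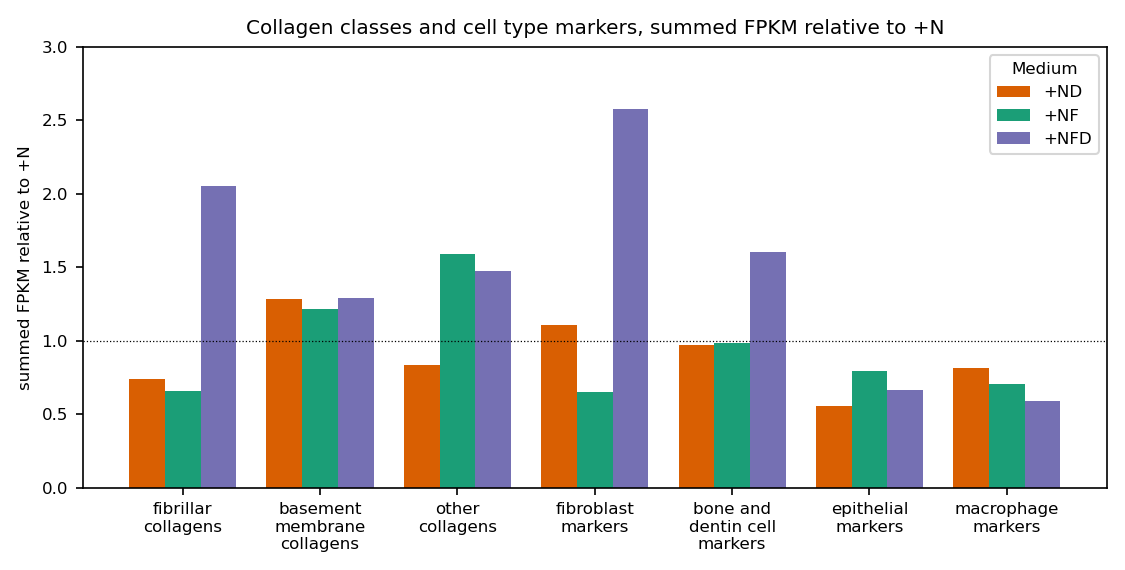
Summed FPKM relative to +N (linear axis from 0, dotted line at the +N level) of the 3 collagen classes and of fibroblast, bone and dentin cell, epithelial and macrophage markers in +ND, +NF and +NFD, with 1 bar per library and no error since there are no replicates. The fibrillar bars (0.738, 0.658 and 2.05) and the fibroblast marker bars (1.11, 0.654 and 2.58) were both lowest in +NF and highest in +NFD, while the basement membrane bars stayed between 1.21 and 1.29. Without Col17a1 the basement membrane values were 1.42, 1.88 and 1.58, and without Krt14 the epithelial values were 0.772, 1.03 and 0.988 (neither drawn).

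The stretch of DNA around the start site was compared for Col1a2 and Col3a1, since these genes shared the high +NFD value but differed in how far below +N they lay in +NF. The sequences are the RefSeq windows on GRCm38.p6, from 250 bases before the start to 50 bases after it, on the strand of the gene. The windows are chr6:4505368-4505667 for Col1a2 and chr1:45311288-45311587 for Col3a1, both on the plus strand. Capitals mark CCAAT or its reverse complement ATTGG, and TATAAA or its reverse complement TTTATA.
Col1a2: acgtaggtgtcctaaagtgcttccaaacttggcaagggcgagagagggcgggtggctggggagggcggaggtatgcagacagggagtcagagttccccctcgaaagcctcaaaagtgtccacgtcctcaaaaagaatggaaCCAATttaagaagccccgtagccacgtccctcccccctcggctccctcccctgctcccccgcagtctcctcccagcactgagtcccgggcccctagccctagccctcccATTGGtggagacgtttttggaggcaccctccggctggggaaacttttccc
Col3a1: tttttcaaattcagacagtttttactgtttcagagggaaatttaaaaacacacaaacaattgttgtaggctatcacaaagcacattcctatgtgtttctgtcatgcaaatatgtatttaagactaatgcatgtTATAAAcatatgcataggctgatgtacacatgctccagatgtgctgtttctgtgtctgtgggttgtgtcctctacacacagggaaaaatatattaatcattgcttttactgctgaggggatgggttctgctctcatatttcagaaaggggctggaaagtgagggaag
The Col1a2 window held 2 matches to the CCAAT letters, 2 to GGGCGG or its reverse complement and none to TATAAA, with a GC content of 61.0%. The Col3a1 window held 1 match to TATAAA and none to CCAAT or to GGGCGG on either strand, with a GC content of 37.7%. Matches are letters only and do not show that a factor binds there. Windows were found for 35 of the 44 collagen genes (38 windows), Col1a1 and Col5a2 not among them. Of 32851 windows of all genes, 37.4% held CCAAT or ATTGG, against 3 of 8 fibrillar, 6 of 10 basement membrane and 4 of 20 other collagen windows. TATAAA or TTTATA stood in 13.6% of all windows and in 5 of the 38 collagen windows. GGGCGG or CCGCCC stood in 35.7% of all windows and in 6 of 8 fibrillar, 6 of 10 basement membrane and 11 of 20 other collagen windows. None of the motifs contains another, and shares over so few windows are a description.

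The fibrillar genes also shared an exon pattern that the naming rule did not use. In the transcript with the longest coding sequence of each gene (GENCODE M21), 305 of 649 coding exons of the fibrillar genes were 54 nt long (47.0%), and 535 had a coding length that was a multiple of 9 (82.4%). The repeat of glycine and its neighbours spans 9 nt of coding sequence, so such a length can hold whole repeats. Only lengths were counted, and the exon sequences were not read. In the basement membrane genes, 25 of 548 coding exons were 54 nt long (4.56%) and 49.6% were a multiple of 9. The other collagens lay between these classes for the 54 nt length, at 17.2%. Over all 21951 protein-coding genes the shares were 0.674% and 14.5%. Fibrillar genes ranged from 74.6% to 88.5% in the multiple-of-9 share and basement membrane genes from 27.5% to 64.4%, so these ranges did not overlap. The other collagens had 53.5% of exons at a multiple of 9. They ranged from 0% to 78.6% by gene and so reached into the fibrillar range.

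Col17a1, on chromosome 19, encodes a transmembrane collagen of the hemidesmosome that fastens basal keratinocytes to the basement membrane. Its FPKM was 387 (+N), 482 (+ND), 388 (+NF) and 463 (+NFD). This was the highest level per length of any collagen in each library, and its log2 ratios between media stayed between -0.06 and 0.31. Col7a1, on chromosome 9, encodes the anchoring fibrils beneath the same structure. It had 39.3 (+N), 65.8 (+ND), 27.2 (+NF) and 47.9 (+NFD), higher in each library with DBZ than in its control without it, by 0.73 and 0.79 on the log2 scale. Neither ratio reached 2-fold.

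Col18a1, on chromosome 10, encodes a basement membrane collagen whose end fragment is endostatin. Its FPKM was 67.9 (+N), 95.1 (+ND), 188 (+NF) and 129 (+NFD). The highest value was that of the library with FGF10 alone, and the log2 ratio of 1.45 for +NF relative to +N made it the only basement membrane gene past 2-fold in that comparison. With DBZ present, FGF10 was accompanied by a log2 ratio of 0.44. Without Col17a1 and Col18a1, the remaining basement membrane genes summed to 55.4 (+N), 79.3 (+ND), 43.8 (+NF) and 65.3 (+NFD). Col18a1 overlaps Slc19a1 on the opposite strand, and since the strand setting of the counting is not given in the sources used here, fragments of overlapping genes cannot be told apart.

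Type IV collagen is the network former of every basement membrane, and its most common form joins chains from Col4a1 and Col4a2. Col4a1 had an FPKM of 2.65 (+N), 3.23 (+ND), 4.94 (+NF) and 6.34 (+NFD). Col4a2 had 2.66 (+N), 3.65 (+ND), 4.27 (+NF) and 5.35 (+NFD). The 2 genes rank the 4 libraries alike, and their ratio stayed between 0.884 and 1.19. Col4a5, on the X chromosome, encodes a chain of the epithelial forms of type IV and had 10.2 (+N), 6.24 (+ND), 7.13 (+NF) and 5.39 (+NFD). It was thus the most abundant type IV gene in +N, +ND and +NF per length, and its order across media differed from that of Col4a1. Col4a6, its neighbour on the X chromosome, was at most 0.256, and Col4a5 exceeded it 33.5 to 86.0 times. Col4a3 and Col4a4, which pair with Col4a5 in the kidney form, were at or below about 6.15 fragments in every library.

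Col4a1 and Col4a2 lie head to head on chromosome 8, and their start windows are shown because the genes follow each other so closely. The start sites are 21 nt apart and the windows share 78 bases. Col4a1 is read from the minus strand (chr8:11312777-11313076) and Col4a2 from the plus strand (chr8:11312555-11312854), and capitals are as above.
Col4a1: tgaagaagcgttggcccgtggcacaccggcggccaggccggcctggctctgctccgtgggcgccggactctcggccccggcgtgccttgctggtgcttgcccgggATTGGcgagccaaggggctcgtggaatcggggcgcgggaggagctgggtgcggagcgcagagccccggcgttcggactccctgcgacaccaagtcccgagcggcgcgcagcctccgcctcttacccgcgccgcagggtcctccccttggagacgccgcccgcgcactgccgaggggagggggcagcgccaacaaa
Col4a2: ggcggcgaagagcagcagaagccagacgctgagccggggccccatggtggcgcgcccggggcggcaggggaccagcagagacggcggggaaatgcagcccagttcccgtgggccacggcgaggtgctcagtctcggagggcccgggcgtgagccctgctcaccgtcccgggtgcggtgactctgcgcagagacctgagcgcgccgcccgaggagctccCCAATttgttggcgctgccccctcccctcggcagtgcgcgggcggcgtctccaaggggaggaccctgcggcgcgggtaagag
Each window held 1 match to the CCAAT letters and none to TATAAA, and their GC contents were 74.0% and 73.7%. GGGCGG or its reverse complement occurred 1 time in the Col4a1 window and 3 times in that of Col4a2. The 2 genes overlap each other on opposite strands at this point, and fragments from the overlap cannot be told apart.

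Type VI collagen forms beaded filaments around cells in connective tissue, with chains from Col6a1, Col6a2 and Col6a3. Col6a1 had an FPKM of 1.44 (+N), 5.17 (+ND), 2.49 (+NF) and 20.4 (+NFD). Col6a2, beside it on chromosome 10, had 1.05 (+N), 3.13 (+ND), 1.43 (+NF) and 15.1 (+NFD). Both rank the libraries in the same order, with +NFD the highest and +ND the next. Their log2 ratios for +NFD relative to +N, 3.14 and 2.97, were the largest of the 26 genes with the added 1, though without it Col22a1, described further on, came first. The ratio between the genes stayed between 1.35 and 1.74. Col6a3 on chromosome 1 had 0.337 (+N), 0.542 (+ND), 0.294 (+NF) and 2.00 (+NFD), so it also was highest in +NFD. Col6a4, Col6a5 and Col6a6 stayed below 1. The fibroblast marker sum was also highest in +NFD but was lower in +NF than in +N, where Col6a1 and Col6a2 were higher. The markers themselves were mixed there. Of 8 whose larger FPKM of that pair was 1 or more, 3 were higher in +NF (Pdgfra, Twist1 and Prrx1) and 5 lower. Pdgfra and Twist1 reached 1 only in +NF of the pair and Pdgfrb only in +N, so their directions were fixed.

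Col8a1, on chromosome 16, encodes a short network-forming collagen known from vessel walls and the cornea. Its FPKM was 27.03 (+N), 7.11 (+ND), 65.3 (+NF) and 8.20 (+NFD). Both libraries with DBZ lay far below both libraries without it, the reverse of the type VI pattern. The log2 ratio was -1.79 for +ND relative to +N and -2.85 for +NFD relative to +NF. FGF10 was accompanied by a ratio of 1.24 without DBZ and of 0.18 with it. Col8a2, its partner in type VIII, stayed below 1 and was highest in +NFD (0.829), so the ratio of Col8a1 to Col8a2 ran from 161 in +NF to 9.89 in +NFD.

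The fibril-associated collagens sit on the surface of fibres. Col12a1 had an FPKM of 16.0 (+N), 10.4 (+ND), 11.8 (+NF) and 14.7 (+NFD), with no ratio past 2-fold. Col16a1 had 9.22 (+N), 16.3 (+ND), 10.1 (+NF) and 19.5 (+NFD), the higher values being those with DBZ. Col9a3, a chain of the cartilage-associated type IX, had 2.53 (+N), 0.590 (+ND), 1.45 (+NF) and 1.01 (+NFD), with the lower values in DBZ. Col9a3 overlaps Tcfl5 on the opposite strand. Col20a1 had 1.14 (+N), 0.319 (+ND), 0.532 (+NF) and 0.514 (+NFD).

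Col22a1, a collagen of tissue junctions such as that of muscle and tendon, was near its lower limit in 3 libraries. It had an FPKM of 0.0475 (+N), 0.0852 (+ND), 0.0495 (+NF) and 1.45 (+NFD), or at most about 11.6, 16.1, 11.97 and 347 fragments. The ratio of the FPKM values was 30.6 for +NFD to +N, while the log2 ratio with the added 1 was only 1.23, since that constant holds down the ratios of weak genes. Col23a1, a transmembrane collagen, had 1.70 (+N), 5.83 (+ND), 2.24 (+NF) and 4.02 (+NFD), above its control in both libraries with DBZ. Col26a1 had 0.307 (+N), 0.796 (+ND), 0.988 (+NF) and 2.104 (+NFD).

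**Figure D3:**
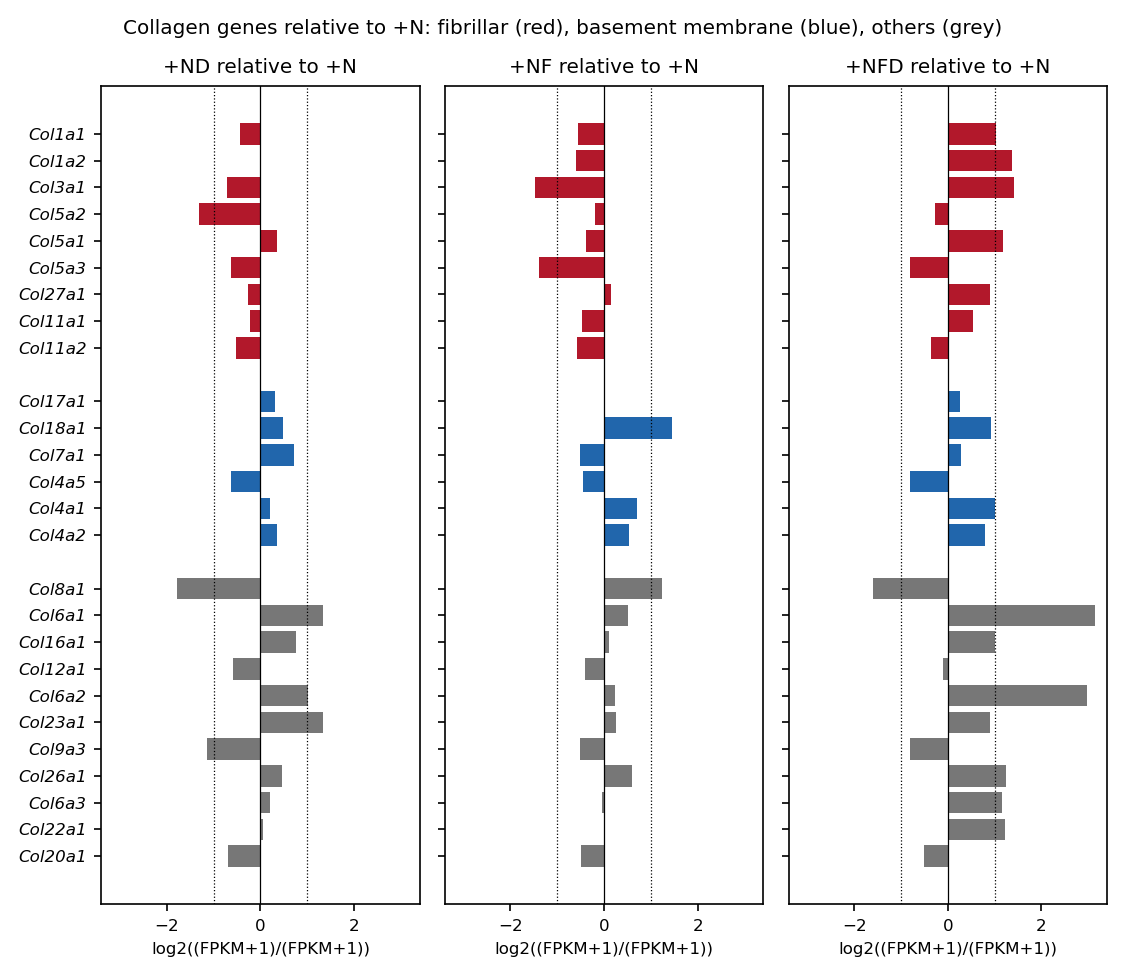
Log2 ratio of (FPKM + 1) for each collagen gene in +ND, +NF and +NFD relative to +N, grouped by class, with 1 bar per gene in each panel (pairs with both values under 1 included), dotted lines at 2-fold and no error since each medium had 1 library. The longest bars are those of Col6a1 (3.14) and Col6a2 (2.97) in +NFD, and Col8a1 points down in both libraries with DBZ (-1.79 and -1.61) and up with FGF10 alone (1.24).

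The comparisons were then counted over genes whose larger FPKM of the pair was 1 or more, and a gene was counted past 2-fold at a log2 ratio of 1 or more in size. In +ND relative to +N, the comparison for DBZ without FGF10, 3 of 21 collagens were at least 2-fold higher (Col6a1, Col6a2 and Col23a1), against 5.88% of 13173 genes. The lower ones were also 3 (Col5a2, Col8a1 and Col9a3), against 5.29% of all genes. Col9a3, Col11a2 and Col20a1 passed the filter only through +N and so had to lie lower in +ND. The median log2 ratio was -0.51 for 7 fibrillar genes (the value of Col11a2), 0.33 for 6 basement membrane genes and 0.09 for 8 others, beside 0.10 over all genes. Genes were also kept by a mean FPKM of at least 1 over the 4 libraries, a filter that is the same for every pair. This gave -0.44 for fibrillar, 0.33 for basement membrane and 0.61 for other collagens. Such a mean can still rest on 1 library, as for Col26a1, which was under 1 in all but +NFD. Col6a2 was just inside the limit at 1.01, or 0.90 with the ratios centred on the median of all genes, and Col16a1 just outside it at 0.76.

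In +NF relative to +N, the comparison for FGF10 without DBZ, 2 of 22 collagens were at least 2-fold higher (Col18a1 and Col8a1), against 2.76% of all genes. Those at least 2-fold lower were Col3a1 and Col5a3, against 2.44%. Col5a3, Col11a2 and Col20a1 passed only through +N and Col27a1 only through +NF. The median was -0.57 over 8 fibrillar genes, 0.26 for basement membrane and 0.18 for other collagens, beside 0.12 over all genes. Kept by their mean, the 7 fibrillar genes had a median of -0.55, with 6 of them below 0 beside 4389 of 12875 genes, and the other classes had 0.26 and 0.25. For this comparison the study reports, by its own test, that genes of matrix organization and of cell division predominated among those upregulated. That gene group is wider than the collagens.

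In +NFD relative to +N, 11 of 26 collagens were at least 2-fold higher, against 5.85% of all genes. They were Col1a1, Col1a2, Col3a1 and Col5a1 of the fibrillar class, Col4a1 of the basement membrane class, and Col6a1, Col6a2, Col6a3, Col16a1, Col22a1 and Col26a1. Col8a1 was the only one at least 2-fold lower, against 4.03%. The medians were 0.91 for fibrillar, 0.54 for basement membrane and 1.01 for other collagens, beside 0.18 over all genes. Col6a3, Col11a1, Col22a1, Col26a1 and Col27a1 passed the filter only through +NFD and so had to lie higher there, as Col11a2 and Col20a1 had to lie lower. These include 3 of the 11 higher collagens, and the same held for 310 of the 782 higher genes overall. The fibrillar median is the value of Col27a1. Kept by their mean, fibrillar genes had a median of 1.04, basement membrane genes 0.54 and others 0.95, beside 0.18 over all genes. Col26a1, among the others, had to lie higher under this filter too. With the ratios centred on the median of all genes, the count of higher collagens was 7, and Col1a1 (0.86), Col4a1 (0.83), Col16a1 (0.83) and Col6a3 (0.99) dropped out. With a filter at an FPKM of 5, the count among the other collagens was 3 in place of 6.

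In +NFD relative to +NF, the comparison for DBZ in the presence of FGF10, 9 of 24 collagens were at least 2-fold higher, against 3.72% of all genes. These were Col1a1, Col1a2, Col3a1, Col5a1 and Col11a1 among 8 fibrillar genes, and Col6a1, Col6a2, Col6a3 and Col22a1 among 10 others. No basement membrane gene was past 2-fold in either direction, and Col8a1 was lower, against 2.69% of all genes. The medians were 1.29 for fibrillar, 0.26 for basement membrane and 0.77 for other collagens, beside 0.05 over all genes. Col11a1 stood at the limit with 1.00, and at 0.95 after centring. Col5a3, Col6a3, Col11a1, Col22a1 and Col26a1 passed only through +NFD and had to lie higher, 3 of them among the 9, as did 251 of the 497 higher genes overall. Kept by their mean, the medians were 1.58, 0.26 and 0.64 in the same order of classes, and 2 other collagens were past 2-fold in place of 4. Under this filter Col26a1 again had to lie higher.

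In +NFD relative to +ND, the comparison for FGF10 in the presence of DBZ, 8 of 24 collagens were at least 2-fold higher, against 3.39% of all genes. These were Col1a1, Col1a2, Col3a1, Col5a2 and Col27a1, and Col6a1, Col6a2 and Col22a1. None was 2-fold lower, against 3.11% of all genes. Col5a2 had its lowest value in +ND and a ratio of 1.03, or 0.94 after centring. Col6a3, Col9a3, Col11a1, Col22a1, Col26a1 and Col27a1 passed only through +NFD and had to lie higher, 2 of them among the 8, as did 180 of the 450 higher genes overall. The 3 comparisons with +NFD share that library, and those with +N share the +N library, so they are not independent of each other.

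**Figure D4:**
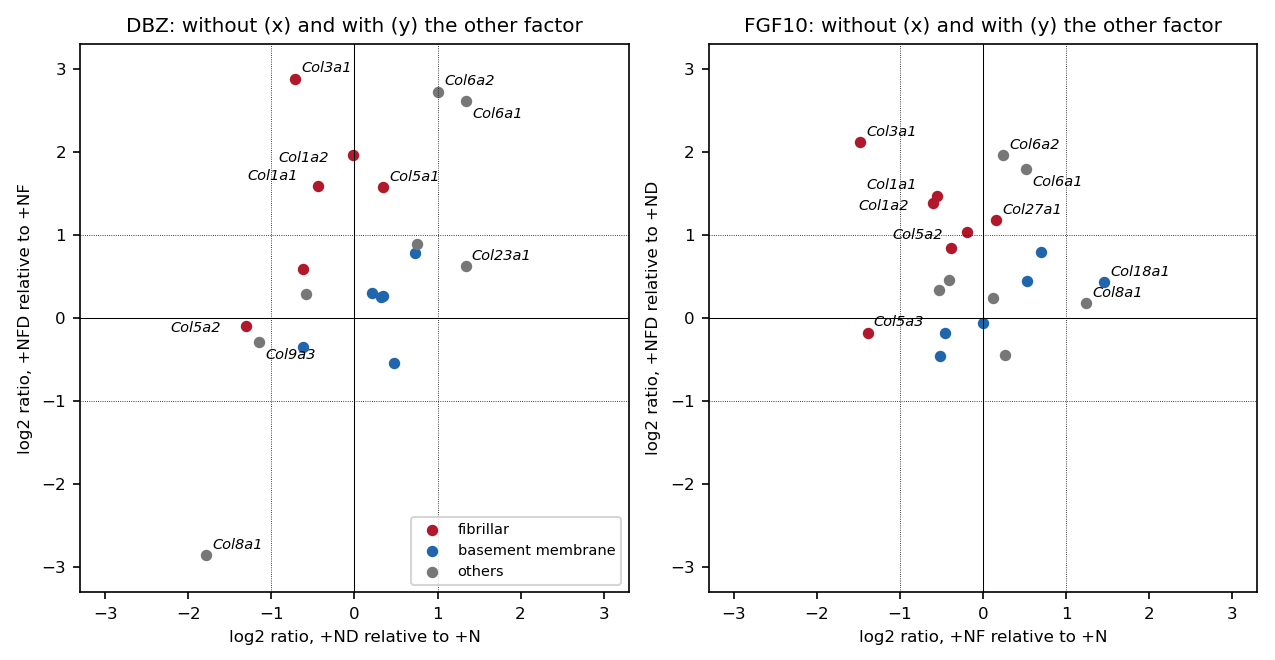
Log2 ratio of (FPKM + 1) for the collagens that passed the filter in both comparisons, with DBZ (left, +ND relative to +N against +NFD relative to +NF) and FGF10 (right, +NF relative to +N against +NFD relative to +ND). Points are genes coloured by class, dotted lines mark 2-fold, and Col6a1, Col6a2 and Col8a1 are the genes past 2-fold in the same direction on both axes of the left panel.

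DBZ was covered by 2 comparisons that share no library, and 19 collagens passed the filter in both. Col6a1 and Col6a2 were at least 2-fold higher in both, against 1.84% of 12774 genes. Col8a1 was at least 2-fold lower in both, against 2.13%. With centred ratios Col6a2 was past 2-fold in only 1 of these comparisons. For FGF10, 20 collagens passed in both comparisons, and 0 were at least 2-fold higher in both or at least 2-fold lower in both, against 0.863% and 0.926% of 12635 genes. By the sign of the ratio alone, 1 of 6 fibrillar genes was above 0 in both DBZ comparisons and 1 below, and for FGF10 these counts were 1 and 1 of 7. Of 6 basement membrane genes, 4 were above and 1 below for DBZ, and 3 above and 2 below for FGF10. Of 7 other collagens, 4 were above and 2 below for DBZ, and 4 above and 0 below for FGF10. Over all genes most ratios lay above 0 in each comparison taken singly. For DBZ these were 7673 of 13173 genes without FGF10 and 7642 of 13349 with it. For FGF10 they were 8595 of 13090 without DBZ and 7844 of 13293 with it. The share of all genes with 1 sign in both comparisons was not counted, so the sign counts are a description. The difference between these classes was not tested.

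Chains that join in 1 protein did not all keep a fixed ratio. Col1a1 relative to Col1a2 was 1.74 (+N), 1.29 (+ND), 1.81 (+NF) and 1.38 (+NFD). Col5a1 relative to Col5a2 was 0.226 in +N and 0.188 in +NF but 0.777 in +ND and 0.685 in +NFD. Both ratios thus split the libraries by DBZ, the first lower with it and the second higher. Col1a1 relative to Col3a1, the balance of types I and III, was 3.57 (+N), 4.44 (+ND), 7.39 (+NF) and 2.70 (+NFD). Col6a1 relative to Col6a3 was 4.26 in +N and between 8.47 and 10.2 in the other libraries.

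Genes that process, bind or partner with collagens were described from 4 lists, to be read beside the shares of all genes in the same comparisons. Past 2-fold these were 5.85% higher and 4.03% lower in +NFD relative to +N, and 3.72% and 2.69% relative to +NF. Of 32 genes of collagen biosynthesis, 26 passed in +NFD relative to +N, with 5 at least 2-fold higher, 1 of them (Loxl3) only through +NFD, and 1 lower. The median was 0.47, beside 0.18 over all genes. The largest ratio was that of Loxl1, a lysyl oxidase-like enzyme of cross-linking, with an FPKM of 1.02 in +N and 6.75 in +NFD. Pcolce, an enhancer of procollagen processing, had 11.02 and 33.2, and Fkbp10, a chaperone of type I collagen, 5.73 and 17.9. Relative to +NF, 3 of 26 were higher and 1 lower, the latter being Pcolce2 (3.15 in +NF and 0.416 in +NFD). Loxl3 among the 3 passed only through +NFD and Pcolce2 only through +NF, so their directions were fixed. The median was 0.05, equal to that of all genes to 2 decimals. Of 10 collagen receptors, 7 passed in +NFD relative to +N and 3 were at least 2-fold higher. They were Itga1, an integrin chain (0.485 and 4.59), Ddr2, a receptor tyrosine kinase for fibrillar collagen (0.645 and 4.70), and Mrc2, which takes up collagen (1.79 and 5.45). Itga1 and Ddr2 reached an FPKM of 1 only in +NFD of this pair and had to be higher. Relative to +NF, Ddr2 and Mrc2 were again past 2-fold, where Ddr2 (0.659 in +NF) passed only through +NFD and had to be higher.

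Of 22 partners of fibrillar collagen, 15 passed in +NFD relative to +N, with 7 at least 2-fold higher and 2 lower. Eln and Fbln5 among the 7 passed only through +NFD, as did Fbn1, whose value of 0.97 is the median. With genes kept by their mean, the median was 0.91. Mfap2, a microfibril protein, had an FPKM of 1.05 in +N and 9.85 in +NFD, and Bgn, a proteoglycan of dentin and bone, had 26.9 and 113.9. Tnc, an adhesion-modulating protein, went the other way with 23.7 and 6.03. Relative to +NF, 9 of 15 were higher and 2 lower. Eln, Fbln5 and Fbn1, 3 of the 9, passed only through +NFD and had to be higher. Kept by their mean, 6 of 12 were higher and 2 lower, beside 3.35% and 2.58% of all genes. The largest ratio was that of Lum, a proteoglycan that regulates fibre spacing, with 3.15 in +NF and 28.6 in +NFD. Lum, Dcn and Postn are in this list and among the fibroblast markers above. Of 33 basement membrane partners, 27 passed in +NFD relative to +N, with 7 higher, 3 of them only through +NFD, and 2 lower, and a median of 0.68. Itgb4, the hemidesmosomal integrin chain that binds laminin beside Col17a1, had 194.8 in +N and 581 in +NFD and is also an epithelial marker. Relative to +NF, 3 were higher and 1 lower with a median of -0.06. Lama4 among the 3 passed only through +NFD and had to be higher. The lower one was Lama3 (147 and 63.7), a laminin chain of the hemidesmosome.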

How the data were processed

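RNA from DEOs was sequenced on an Illumina instrument, with 1 library per medium. The authors checked reads with FastQC 0.11.9, trimmed adapters using Trim Galore 0.6.5, mapped to GRCm38 by TopHat2 2.1.1 and deposited FPKM values from Cufflinks. The annotation release and strand setting are not given in the sources used here. FPKM divides by length and library size, so abundant transcripts lower all others. A deposited column counting samples was not used.

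Entries of 1 symbol were summed (123 symbols had several). Ratios were log2((FPKM + 1)/(FPKM + 1)) for genes whose larger FPKM was 1 or more, called at 2-fold, without a test since each medium had 1 library. Steps of 1 fragment were estimated from 8367 single-transcript genes of at least 1000 nt and are rough. GENCODE M21 held 46994 of the gene identifiers, and supplied lengths, exons and overlaps. Start windows came from RefSeq.

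Collagens reaching an FPKM of 1 were named with their values, and the others were only named or counted. From each partner list, the 3 largest ratios of a comparison could be named. Genes outside this rule were chosen after their values were seen: Col24a1, Col2a1, Col10a1, Col4a3, Col4a4, Col4a6 and Col8a2 among the collagens, and Loxl3, Eln, Fbln5 and Fbn1 among the partners. The members and lists were chosen with earlier results of these data known. Some genes of the marker and partner lists are not reported here and were left out of their counts and sums. Alternatives were a pseudocount of 0.1 or none, no filter, a filter at 5, upper-quartile scaling, centred ratios and the highest entry per symbol. A filter on the mean FPKM over the 4 libraries was added after seeing the data. Scripts were tested on simulated data. Python 3.11.15, numpy 2.4.6, pandas 2.3.3 and matplotlib 3.10.9 were used.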

Additional observations from a re-analysis of the deposited data

Results flagged for a closer look

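Col3a1 was singled out because FGF10 went with opposite directions in the presence and absence of DBZ. The log2 ratio was -1.48 for +NF relative to +N (FPKM of 6.81 and 20.8) and 2.12 for +NFD relative to +ND (56.7 and 12.3). Each value is 1 library, and the difference was not tested. In the media with Jagged1, not analysed here, the study reports higher Col3a1 with FGF10 and no DBZ (+NFJ relative to +NJ).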

How the results depend on the processing

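No paired analysis was possible because each medium had 1 library. No ratio past 2-fold changed direction, and the highest entry per symbol moved nothing. Small values did change sign: Col16a1 and Col17a1 in +NF relative to +N under upper-quartile scaling and centring (Col16a1 0.11 to -0.0033 and -0.0017, Col17a1 0.0040 to -0.13 and -0.11), and 6 of the medians, the largest of which was -0.29 over all collagens in +NF relative to +N, 0.0040 with the filter on the mean. With a pseudocount of 0.1, collagens at least 2-fold lower in +NFD relative to +N numbered 4 in place of 1 (fibrillar 1 in place of 0, others 3 in place of 1) and biosynthesis genes 2 in place of 1, and other collagens higher in +NFD relative to +ND numbered 5 in place of 3. With no pseudocount these values were the same, basement membrane collagens higher in +NFD relative to +N were 2 in place of 1, lower collagens were 5 in place of 3 in +ND (fibrillar 2 in place of 1) and 4 in place of 2 in +NF (others 1 in place of 0), each relative to +N. Without the filter the median log2 ratio was 0.14 over all collagens and 0.054 over the others for +NFD relative to +N, 0.036 over the others relative to +NF, and 0.19 over all relative to +ND. With a filter at 5, lower collagens in +NF were 1 in place of 2 (fibrillar 1), lower others in +ND were 1 with a median of 0.76, and biosynthesis genes lower relative to +NF were 0. With that filter, higher others were 3 relative to +N and 2 relative to +NF, receptors 1 and 1, and basement membrane partners 2 and 0. Upper-quartile scaling gave 0 basement membrane collagens and 4 partners higher in +NFD relative to +N, and centring gave 7 collagens, 0 and 3. The smallest values rest on few fragments, and 1 library per medium limits every ratio. Among the alternatives only the filter on the mean was chosen after seeing the data, and it gave 2 other collagens higher in +NFD relative to +NF in place of 4. The basement membrane median in +NF relative to +N was 0.26, -0.0067 without the filter and -0.23 with a filter at 5.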

Other observations

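Genes with a collagen-like helix outside the collagen naming pattern were listed after the collagen values had been seen, and 16 of the 33 found in the table reached an FPKM of 1. Sftpd, surfactant protein D, a secreted defence lectin, had an FPKM of 24.1 in +N and 19.4 in +NF, was listed at 0 in +ND and had 0.0194 in +NFD. Its high libraries were those without DBZ, as for Col8a1. Marco, a scavenger receptor of macrophages, had 7.05 (+N), 1.35 (+ND), 8.26 (+NF) and 0.396 (+NFD), and Msr1, another such receptor, had 8.65, 2.35, 6.97 and 1.79 in the same order. Both thus were also lower in the libraries with DBZ. The chains of complement C1q, made by macrophages, did not share this split: C1qa had 52.0, 43.3, 34.9 and 38.9 in that order. Colec12, a collectin of vessel and stromal cells, had 1.76 (+N), 3.33 (+ND), 1.68 (+NF) and 8.06 (+NFD), and Emilin1, an elastic fibre glycoprotein, had 1.95, 2.89, 1.32 and 6.96, both highest in +NFD and lowest in +NF.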
